A study of Mus musculus with 10 samples.

Results

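B cells that secreted IL-10 were compared with B cells that did not. The comparison used 8 of the 10 arrays of the series, 5 of IL-10+ cells (replicates 1 to 5) and 3 of IL-10- cells (replicates 2, 3 and 5). Arrays were taken by their labelled fraction, and probes were tested where the detection score passed 0.99 on at least 2 of the 8 arrays. That left 16064 of 45281 probes, which stand for 10908 genes. Every group came from splenic B cells of C57BL/6 mice, kept for 5 h with LPS (10 µg/ml), PMA (50 ng/ml) and ionomycin (500 ng/ml). A regulatory B cell isolation kit, which captures secreted IL-10 on the cell, was combined with flow sorting to separate the fractions, so the groups share strain, tissue and all 3 stimuli. No label states whether replicates came from separate mice, and the p-values reflect variation among these arrays alone, some of which may be technical.

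IL-10 is a cytokine that restrains macrophages, dendritic cells and T cells through its receptor and STAT3. In the mouse spleen, marginal zone B cells, B-1 cells and their close relatives are known to be rich in B cells competent to make it, and a short culture with LPS, phorbol ester and ionomycin is the usual way to reveal them. B-1 and marginal zone cells carry a restricted set of immunoglobulin variable genes and respond quickly to microbial ligands, whereas the larger follicular pool recirculates and carries CD23.

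Levels are log2 values after background correction and quantile normalization, and a difference is IL-10+ minus IL-10-, with its standard error (SE). A gene was called higher or lower where the adjusted p of limma was under 0.05. Detected probes numbered 14410 to 15610 on the IL-10+ arrays and 13910 to 14313 on the IL-10- arrays, without overlap, while mean signal before normalization overlapped (543 to 823 against 362 to 642). Precision is limited by having only 8 arrays. Arrays correlated more closely within the IL-10+ group (0.978 to 0.99) than between the groups (0.939 to 0.968). The range within the IL-10- group (0.963 to 0.981) overlapped that between the groups. These correlations run across probes that are not independent replicates. IL-10- replicate 5 lay farthest from the mean of its own group, with a root mean square difference of 0.554 log2, followed by IL-10- replicate 2 at 0.460.

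Il10 itself was the first check of the labels, since the sort selected on its product. Its level was 12.93, 13.68, 13.23, 13.06 and 13.15 on the IL-10+ arrays and 7.94, 7.79 and 7.57 on the IL-10- arrays. The groups stood far apart, by 5.45 ± 0.18 (SE), or 43.6-fold, with differences of 5.75, 5.44 and 5.58 inside the pairs numbered 2, 3 and 5. The probe was still detected on all 3 IL-10- arrays. In total B cells, the fraction before sorting, it stood at 10.63 and 9.89 when all 10 arrays were normalized together. This difference is a description of the sort.

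The cytokine genes that flank Il10 on its chromosome were measured next. Il19, a cytokine of the IL-10 family, read 7.10 to 7.44 on the IL-10+ arrays and was not well above background on any IL-10- array, so that it was at least 2.96-fold higher (adjusted p = 9.86e-05, limma). Il24, another cytokine of the family, was not well above background on any IL-10- array and was detected on 3 of 5 IL-10+ arrays. It was not called (adjusted p = 0.0693), although the adjusted p under the replicate block was 0.046, and its arrays overlapped between groups. Pigr, the transporter of polymeric immunoglobulins, was at least 1.31-fold higher, with an adjusted p of 0.0117 and of 0.0545 with the block. Mapkapk2, a kinase that stabilizes cytokine mRNAs, differed by 0.34 ± 0.12 (SE), with an adjusted p of 0.0808. Of the 12 tested genes in the list of Il10 and its neighbours, 3 were called higher, Il10 itself among them, and none lower. The call of Il10 follows from the sort, and 8.57% of all genes were called higher.

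**Figure D1:**
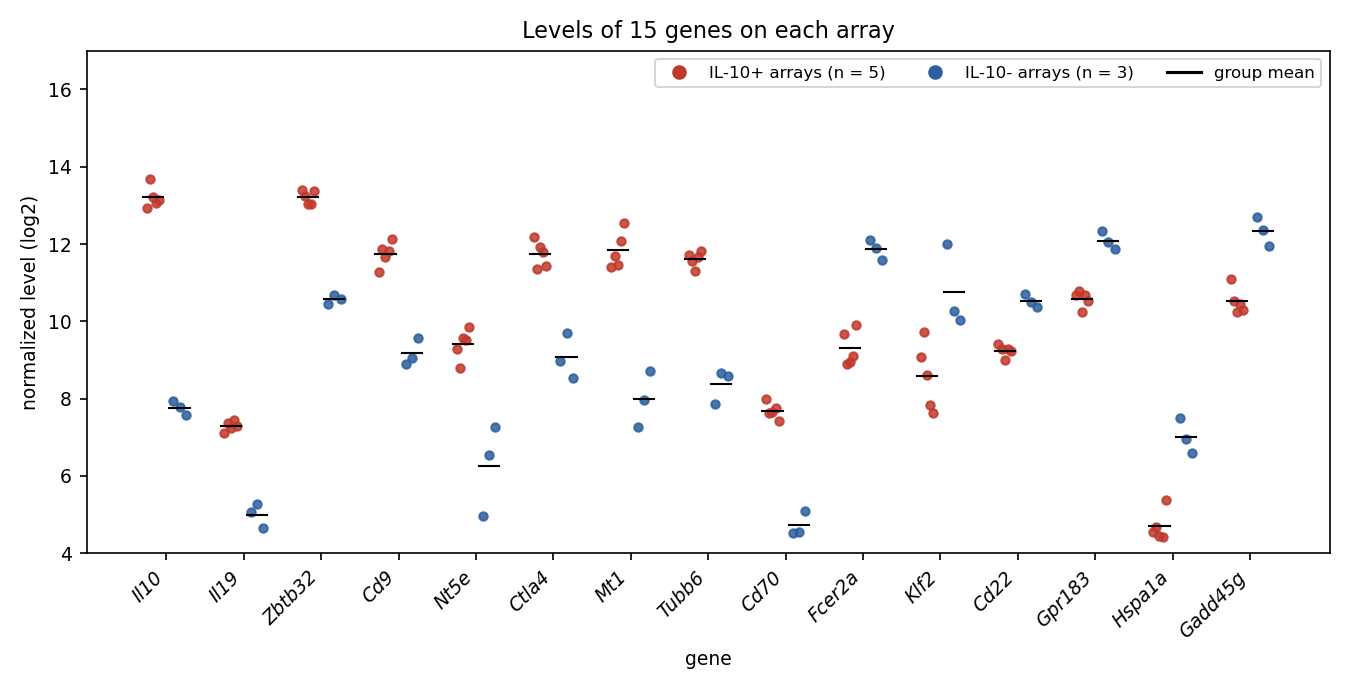
Normalized level (log2, vertical axis) of 15 genes on each of 5 IL-10+ arrays (red points) and 3 IL-10- arrays (blue points), with the group mean as a black line. The genes were chosen with results of these data known. The points of the 2 groups do not overlap for any of them, against 24.9% of all genes. Il10, on whose product the sort selected, has the widest gap.

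Across all genes, 935 were higher and 874 lower in IL-10+ cells, which is 8.57% and 8.01% of the genes tested and 16.6% in all. Of these, 451 were at least 2-fold higher and 212 at least 2-fold lower, 149 and 11 passed 4-fold, and 24 and 0 passed 8-fold. The IL-10+ and IL-10- arrays did not overlap for 24.9% of all genes. Counts of called list members are to be read beside the 8.57% higher, 8.01% lower and 16.6% in all. Among the called genes, 1800 of 1809 had the same sign in all 3 pairs and 1809 of 1809 the same sign within both slides. These genes were chosen by their difference on the same arrays, so this agreement is nearly fixed and is a description. In each of the 8 fits that left out 1 array, 841 of the 1809 were called. Without IL-10- replicate 2, 969 of the 1809 were still called. With the replicate number as a block 1180 genes were called, of which 1015 were among the 1809.

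The balance of calls depended on the scale. On the level of probes 2574 were called, which is 16% of those tested, with 1340 higher (8.34%) and 1234 lower (7.68%). The higher ones made up 52.1% of the called probes after quantile normalization. Centring each array on its detected probes made that share 38.3%, with 868 probes higher and 1398 lower. Centring on all probes raised the median difference of the tested probes to 0.50 log2 and the share to 97.2%, so that differences on that scale are to be read relative to 0.50. Directions below are those of the quantile scale, and several medians of lists turned on the others. Centred on all probes, those of the costimulatory, TNF superfamily, B cell transcription factor and PI3K lists turned from -0.28, -0.15, -0.14 and -0.05 to 0.29, 0.48, 0.47 and 0.46. Centred on the detected probes, those of the IL-10 receptor, Toll-like receptor, heat shock and BCL2 lists turned from 0.04, 0.04, 0.05 and 0.05 to -0.07, -0.04, -0.08 and -0.13. The same is given beside each list whose median is printed below and turned.

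The wide differences lay mostly upward. Below the variable gene IGH-V11 and Il10 itself, the metallothionein gene Mt1 and the cell cycle inhibitor Cdkn2b had the highest differences among named genes outside the immunoglobulin loci. Mt1 read 11.40, 11.70, 11.46, 12.08 and 12.55 against 7.27, 7.96 and 8.71. Cdkn2b read 10.18, 9.86, 9.87, 9.79 and 9.28 against 5.79, 6.54 and 5.58, where IL-10- detection held on 2 of 3 arrays. Neither gene overlapped between groups on any array.

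The downward side was led by Mmp13, a collagen-cleaving protease, which read 7.36, 7.20, 6.68, 7.09 and 8.36 against 9.62, 9.17 and 10.96 and fell by 2.58 ± 0.44 (SE), with an adjusted p of 0.00585. Sorl1, a sorting receptor, was detected on all 3 IL-10- arrays and on no IL-10+ array and was at least 3.49-fold lower (adjusted p = 0.000367). Other falls were those of Zfp608, a zinc finger protein, which was 4.73-fold lower, of Cgas, the cytosolic DNA sensor, at 3.67-fold, and of Rgl1, an exchange factor for Ral, at 4.66-fold. For Rgl1, 3 of 5 IL-10+ arrays passed detection.

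**Figure D2:**
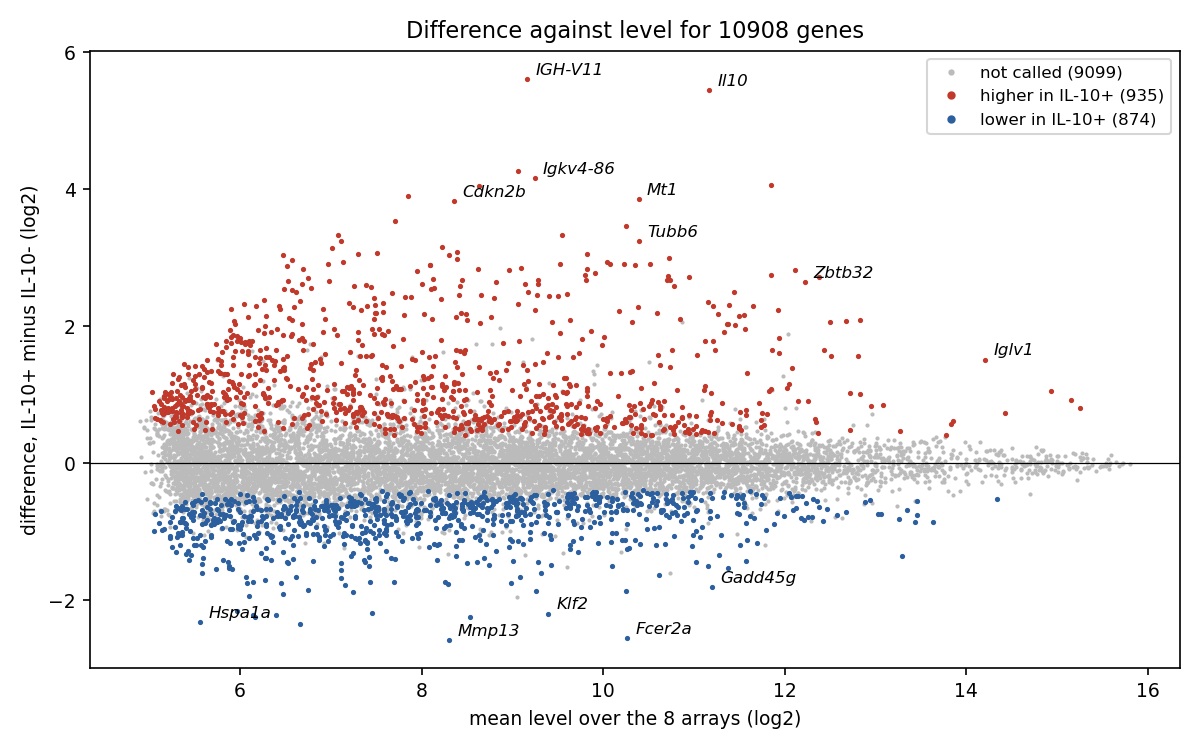
Difference between IL-10+ and IL-10- cells (log2, vertical axis) against the mean level over the 8 arrays (log2, horizontal axis) for 10908 genes, with 935 called higher in red and 874 called lower in blue. The points reach much farther above 0 than below it.

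Immunoglobulin variable genes formed the most one-sided group. Of 87 on the array 58 were tested, and 48 were higher and none lower, with a median difference of 2.26 log2 against -0.03 over all genes. The tested genes held 34 heavy chain, 23 kappa and 1 lambda gene, of which 29, 18 and 1 were higher. All 58 differences were above 0, from 0.43 to 5.61. Detection failed on every IL-10- array for 14 of the 58, which were thus tested only through the IL-10+ arrays and could hardly be lower. On all 3 IL-10- arrays 33 of the 58 were detected. Variable genes of a family are nearly identical in sequence, and a probe may read several of them, so these values are those of probe families rather than of single genes. They are a count over correlated probes.

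IGH-V11 had the widest difference of all genes. It read 10.79, 10.76, 11.30, 11.51 and 11.98 on the IL-10+ arrays and 5.76, 6.27 and 4.94 on the IL-10- arrays, and was detected on 2 of the 3 latter. The difference was 5.61 ± 0.35 (SE), or 48.8-fold, with an adjusted p of 6.36e-05, at 4.93 on slide 1 and 6.81 on slide 2. IGHV12S1 read 9.91, 8.83, 9.64, 9.78 and 10.28 against 7.17, 7.02 and 6.37, a 7.13-fold difference. IGKV4-91 read 10.20, 10.11, 11.01, 10.55 and 11.22 against 7.75, 8.13 and 7.24, a 7.53-fold difference. Heavy chains of the VH11 and VH12 families, the latter with kappa chains of the V4 family, are known from mouse B-1 cells that bind phosphatidylcholine. Other kappa V4 genes were also high, among them Igkv4-86 at 17.9-fold (adjusted p = 0.00224). IGHV10S3, of neither of these heavy chain families, was 16.5-fold higher. The median difference over the 34 heavy chain genes was 2.42 log2, against 5.61 for IGH-V11 and 2.83 for IGHV12S1. Over the 23 kappa genes it was 2.09, against 2.91 for IGKV4-91, 4.16 for Igkv4-86 and 1.12 for Igkv4-58. Genes outside the families known from B-1 cells rose too, and the part of B-1 cells in these differences was not tested.

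The variable genes did not move evenly between arrays. IL-10+ replicate 2 held the lowest IL-10+ value for 55 of the 58, against 22.1% of all genes. The median difference of the 58 was 0.97 in pair 2, 1.70 in pair 3 and 3.18 in pair 5, and 1.79 within slide 1 against 2.92 within slide 2. IGH-V11 and Igkv4-86 show the contrast, since the first stayed between 10.76 and 11.98 on the IL-10+ arrays and the second read 10.89, 9.07, 10.41, 11.89 and 11.76. With the replicate block 35 of the 48 were still called, and 39 of the 48 were called in every fit without 1 array. Without IL-10- replicate 2, 41 of the 48 were still called.

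Of 5 probes for constant genes 2 were higher and none lower, with a median difference of 1.55, which was 0.995 without IL-10- replicate 2. The called ones, Ighm and Igkc, had the smallest differences of the 5, and the others, all for IgG, lay between 1.55 and 2.06 and were not called. Ighm, the heavy chain of IgM, read 15.48, 14.91, 15.22, 15.46 and 15.59 against 14.21, 14.22 and 14.42, a difference of 1.05 ± 0.17 (SE) with an adjusted p of 0.0048. Igkc, the kappa constant gene, rose by 0.80 ± 0.15 (SE), where the adjusted p was 0.00761 and the replicate block made it 0.0505. Iglv1, the single lambda gene, read 14.21 to 15.14 against 13.23 to 13.32 and rose 2.85-fold. All 3 of these genes also had their lowest IL-10+ value on replicate 2.

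**Figure D3:**
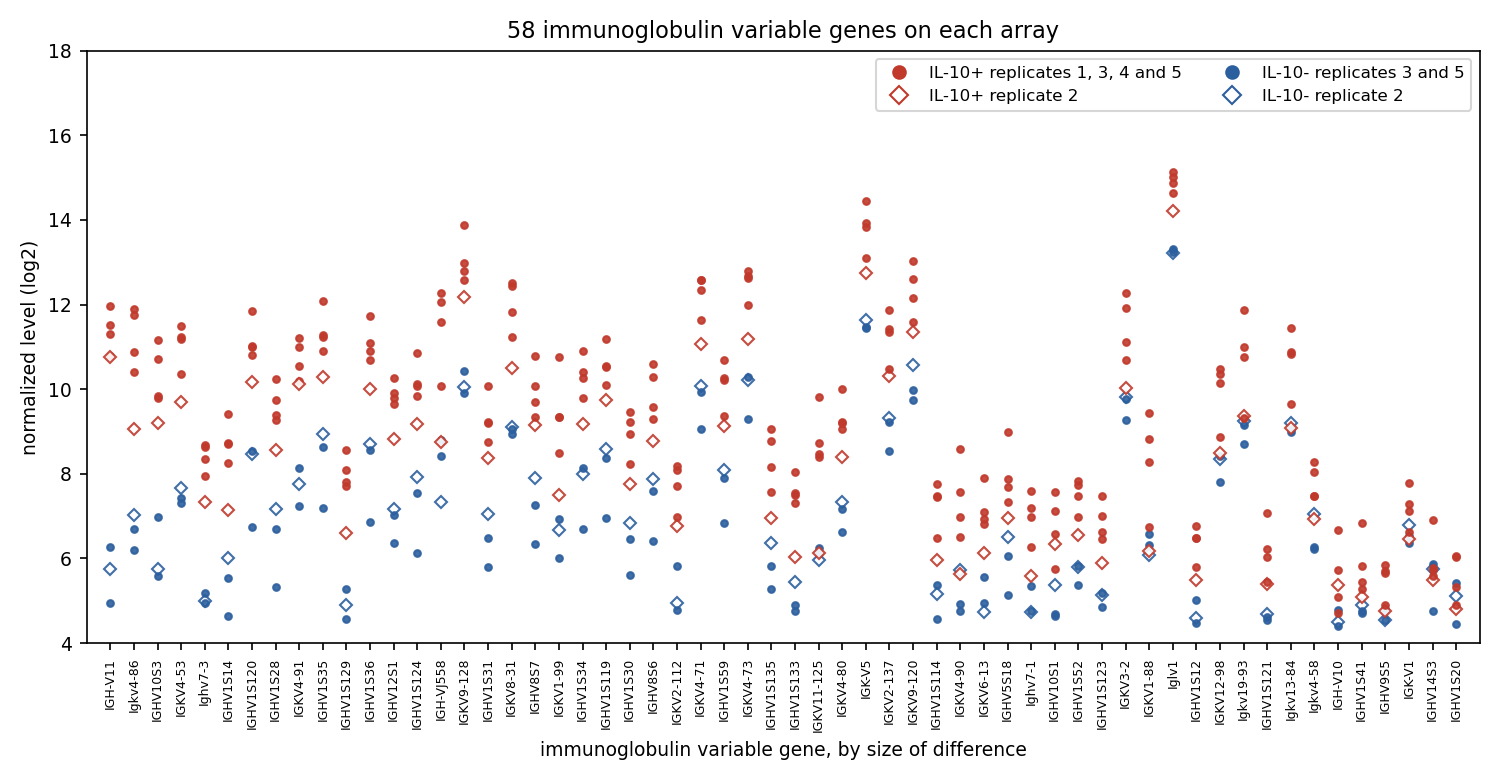
Normalized level (log2, vertical axis) of 58 immunoglobulin variable genes, ordered by difference, on the IL-10+ arrays (red) and IL-10- arrays (blue), with the replicate 2 arrays as open diamonds. The red diamond is the lowest red point for 55 of the genes.

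Genes known from innate-like B cells, that is B-1 and marginal zone cells, were largely higher. Of 17 tested, 10 were higher and 2 lower, with a median difference of 1.08 log2. Zbtb32, a transcriptional repressor of B cell recall responses, read 13.39, 13.25, 13.03, 13.02 and 13.37 against 10.44, 10.69 and 10.58, a 6.25-fold difference (adjusted p = 3.65e-05). Cd9, a tetraspanin of marginal zone and B-1 cells, read 11.28, 11.88, 11.67, 11.81 and 12.12 against 8.89, 9.05 and 9.56, a 5.99-fold difference. The arrays of these genes lay far apart and the values inside each group lay close together.

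Cd1d1, which presents lipids to natural killer T cells and is abundant on marginal zone B cells, read 6.51 to 7.17 and was at least 2.29-fold higher, as no IL-10- array was well above background. Fcrl5, an Fc receptor-like protein of the same cells, was at least 3.26-fold higher (adjusted p = 0.00027). Plscr1, a phospholipid scramblase, was 2.12-fold higher. Spn, the sialoglycoprotein CD43 of B-1 cells, overlapped between groups, with a difference of -0.14 ± 0.17 (SE). Tbx21, the factor T-bet of age-associated and atypical B cells, read 6.30, 6.96, 6.55, 8.04 and 7.39 against 8.20, 8.57 and 9.58 and was lower, by 1.73 ± 0.42 (SE). Its adjusted p was 0.023, and 0.0606 when IL-10- replicate 5 was left out.

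Follicular and resting B cell genes went the other way without exception in sign. Of 20 tested, 14 were lower and none higher, the median difference was -1.04, and all 20 values were below 0. With arrays centred on all probes 5 were lower and none higher, with a median of -0.51. Fcer2a, the low-affinity IgE receptor CD23 of follicular cells, read 9.68, 8.89, 8.96, 9.11 and 9.92 against 12.11, 11.89 and 11.58, and was 5.85-fold lower (adjusted p = 0.000524). Its arrays did not overlap between the fractions.

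Klf2, a quiescence factor of lymphocytes, was the least even of them. It read 9.07, 9.73, 8.61, 7.84 and 7.63 against 10.28 and 10.03 on IL-10- replicates 3 and 5, with IL-10- replicate 2 far above them at 12. Its difference was -2.20 ± 0.55 (SE) with an adjusted p of 0.0271. On leaving out IL-10- replicate 2 it was -1.58 (adjusted p = 0.0896), and without IL-10+ replicates 3, 4 or 5 the adjusted p was 0.0526, 0.0586 and 0.0515. Inside pairs 2, 3 and 5 the differences of Klf2 were -2.27, -1.67 and -2.40. The replicate block gave -2.12 ± 0.19 (SE) with an adjusted p of 0.00835. Gpr183, the oxysterol receptor that guides B cells in the follicle, was lower by 1.50 ± 0.17 (SE), Cr2, the complement receptor CD21, by 1.41 ± 0.22, and Cd22, an inhibitory lectin, by 1.29 ± 0.14. CD21 is abundant on marginal zone cells too. Bcl6, the germinal centre repressor, was 2.06-fold lower, Ets1, which restrains plasma cell formation, 2.20-fold, and Foxp1, a follicular factor, 1.75-fold. A dimmer probe of Foxp1 differed by -0.38 ± 0.26 (SE) and was not called. Sox4, a factor of early B cells, was 3.85-fold lower and was detected on 1 of 5 IL-10+ arrays. Ccr7 and Cxcr5, homing receptors for T cell zones and follicles, were not called, with adjusted p of 0.133 and 0.125.

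Genes of plasmablasts and plasma cells were higher in 9 of 15 tested and lower in 1, with a median difference of 0.88. Prdm1, the factor Blimp-1, read 6.16 to 7.26 and was at least 2.03-fold higher (adjusted p = 0.00504). Xbp1, which expands the secretory pathway, read 11.82 to 12.26 against 11.02 to 11.43, a difference of 0.88 ± 0.16 (SE). Mzb1, a chaperone of IgM assembly that marginal zone and B-1 cells also express, read 12 to 12.53 against 9.88 to 10.85. These genes did not overlap between the fractions.

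Jchain, which joins IgM and IgA into polymers, was the most uneven. It read 9.29, 6.79, 8.19, 9.42 and 9.34 against 6.12, 6.26 and 5.98, so that IL-10+ replicate 2 lay near the IL-10- arrays. The difference was 2.49 ± 0.55 (SE) with an adjusted p of 0.0161, which the replicate block moved to 0.0594 and the omission of IL-10- replicate 2 to 0.0511. Ly6c1, a surface protein of plasma cells and monocytes, was likewise lowest on IL-10+ replicate 2. It read 9.58, 6.70, 7.69, 8.92 and 8.73 and was at least 6.05-fold higher. Fkbp11, a prolyl isomerase of secretory cells, was 2.96-fold higher, and Edem1, which clears misfolded glycoproteins, at least 2.02-fold higher. In bulk samples, a larger share of such cells and more RNA per cell cannot be told apart, and the same holds for every other difference described here. Irf4, another plasma cell factor, was not called.

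In the wider list of the unfolded protein response and secretory pathway, 4 of 26 were higher and none lower, with a median difference of 0.16. Pdia4, a disulphide isomerase, was 2.33-fold higher with an adjusted p of 0.0121. The share of 15.4% was close to the 16.6% of all genes called.

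**Figure D4:**
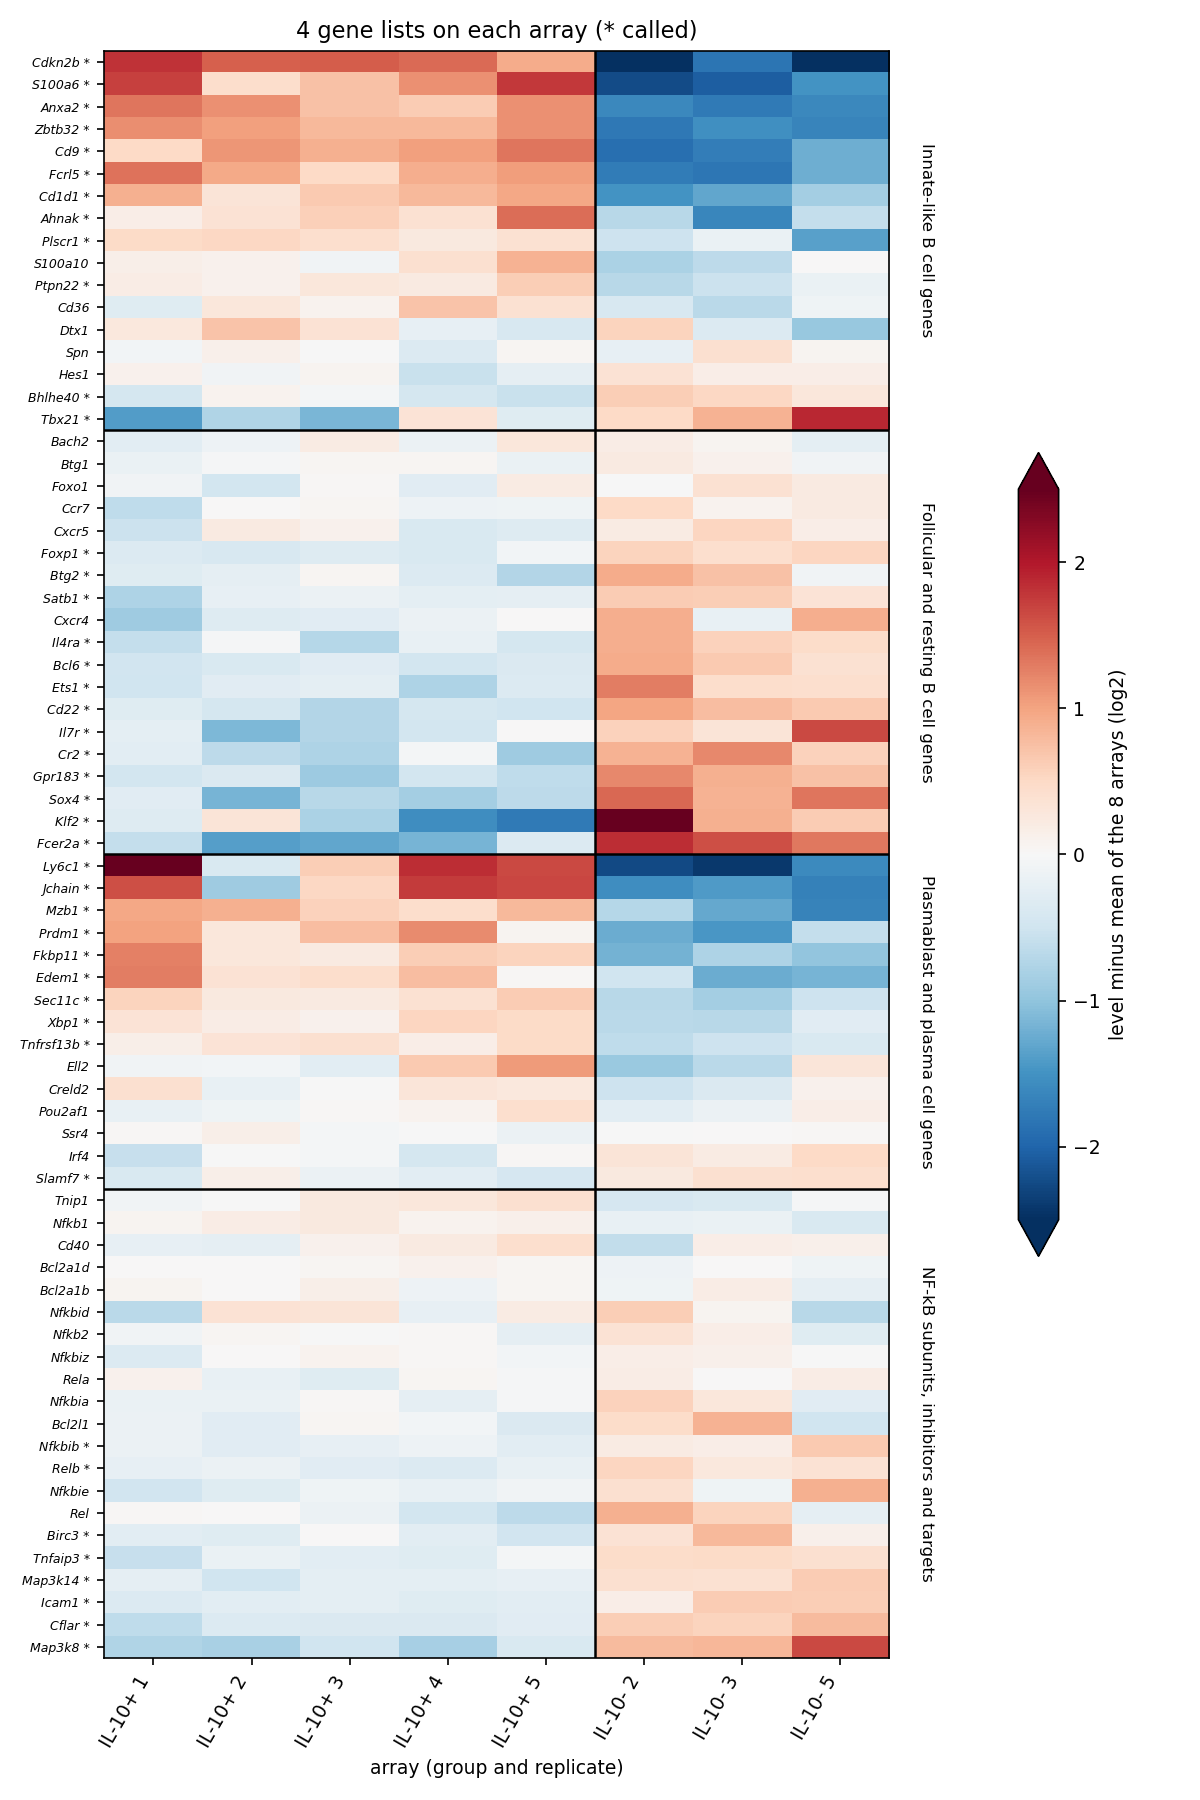
Level of tested members of 4 gene lists, 1 follicular gene left out, minus its mean over the 8 arrays (log2, colour), with IL-10+ arrays in the 5 left columns, IL-10- arrays in the 3 right columns and called genes starred. Most innate-like and plasma cell genes are red on the left, and all follicular genes drawn have a lower mean there.

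Inhibitory surface molecules were higher in 7 of 16 tested and lower in 3. Ctla4, which removes CD80 and CD86 from neighbouring cells, read 12.18, 11.34, 11.93, 11.80 and 11.44 against 8.97, 9.70 and 8.52, a 6.37-fold difference (adjusted p = 0.000615). Nt5e, the ectoenzyme CD73 that makes adenosine, read 9.29, 8.80, 9.57, 9.52 and 9.86 against 4.96, 6.53 and 7.26, and was detected on 2 of 3 IL-10- arrays. Its difference was 3.16 ± 0.45 (SE), with an adjusted p of 0.00261. Both genes were high on every IL-10+ array.

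Havcr1, the phosphatidylserine receptor TIM-1 that marks IL-10 competent B cells, read 10.29, 10.03, 10.21, 10.47 and 10.61 against 7.35, 7.95 and 8.34. Its relative Timd2, the ferritin receptor TIM-2, read 10.93, 10.54, 10.88, 10.79 and 10.91 against 7.80, 8.44 and 8.18, a 6.37-fold difference (adjusted p = 6.36e-05). Fgl2, a secreted ligand of inhibitory Fc receptors, was 4.95-fold higher and was detected on 2 of 3 IL-10- arrays. Lgals1, the lectin galectin-1, was 3.76-fold higher. The TIM receptors had an SE of 0.22 and 0.17 log2, among the smaller ones for differences of this size.

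Lag3, which binds MHC class II, had lower levels on slide 2 in both fractions. It read 9.49, 9.75 and 9.49 on the IL-10+ arrays of slide 1 and 8.24 and 8.20 on those of slide 2, against 7.59, 7.80 and 6.80 on the IL-10- arrays. Its difference was 1.64 ± 0.41 (SE) with an adjusted p of 0.0265, and the adjusted p was 0.0561, 0.0566, 0.0624 and 0.0732 without IL-10+ replicate 1 or 3 or IL-10- replicate 2 or 5. Vsir, the checkpoint receptor VISTA, was 1.77-fold lower. Cd274, the ligand PD-L1, read 12.12 to 13.03 against 13.19 to 13.53 and was not called, with an adjusted p of 0.0896.

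Of 14 cytokines tested, 4 were higher and 2 lower. Il6, a cytokine of B cell help and inflammation, read 6.85 to 7.76, while no IL-10- array was well above background, and was at least 2.73-fold higher (adjusted p = 0.002). Ltb, a subunit of lymphotoxin that organizes follicles, was 2.05-fold lower. Tnf, the inflammatory cytokine, read 8.76 to 10.10 against 9.67 to 10.39 and was not called (adjusted p = 0.0942). Tgfb1, the other well-known regulatory cytokine, overlapped between groups, with a difference of -0.02 ± 0.17 (SE). Without IL-10- replicate 2, 1 of the 4 and 1 of the 2 were still called.

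Among 8 chemokines 3 were higher and none lower. Ccl5, which attracts T cells and monocytes, read 10.87, 10.35, 10.87, 10.15 and 10.37 against 7.79, 8.66 and 7.73, a 5.51-fold difference (adjusted p = 0.00061). Cxcl10, which attracts CXCR3-bearing cells, was 3.13-fold higher. The very abundant Ccl3 and Ccl4, which attract T cells and macrophages, overlapped between groups, at 12.41 to 13.73 against 13.20 to 13.90 and at 14.15 to 15.04 against 14.91 to 15.09. A dimmer probe of Ccl4 differed by -0.96 ± 0.25 (SE) and was called lower (adjusted p = 0.03).

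Of 17 members of the TNF and TNF receptor superfamilies 4 were higher and 1 lower. Cd70, the ligand of CD27, read 7.99, 7.63, 7.65, 7.75 and 7.42 and was not well above background on any IL-10- array, which made it at least 3.90-fold higher (adjusted p = 6.36e-05). Tnfrsf18, the receptor GITR, was 2.54-fold higher and was detected on 2 of 3 IL-10- arrays. Tnfsf8, the ligand CD30L, passed detection on 3 of 5 IL-10+ arrays but no IL-10- array and was at least 1.15-fold higher.

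Costimulatory molecules split, with 3 of 13 higher and 3 lower. Cd80, the ligand B7-1 of CD28 and CTLA-4, read 7.34, 8.07, 7.12, 7.35 and 7.38 and was at least 3.31-fold higher, with no IL-10- array well above background. Its partner Cd86, or B7-2, read 12.31 to 12.68 against 12.16 to 12.30 and was not called (adjusted p = 0.227). Icosl, the ligand of ICOS, was 2.11-fold lower, and Cd83, which stabilizes MHC class II at the surface, 1.61-fold lower.

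MHC class II presentation was called lower in 5 of 14 and higher in 1, with a median difference of -0.35. Ciita, the master factor of the class II genes, read 9.77, 9.21, 9.63, 9.55 and 9.39 against 10.63, 10.64 and 10.05, and was 1.91-fold lower (adjusted p = 0.0104). H2-DMa, which loads peptides on class II, was 1.80-fold lower. With arrays centred on all probes 2 of the 14 were higher and none lower, with a median of -0.02, which lies below the 0.50 of all probes. Class I presentation had 1 of 15 higher, none lower and a median difference of -0.001, which turned to 0.51 with arrays centred on all probes.

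The B cell receptor and its coreceptors had 2 of 22 higher and 4 lower, with a median of -0.42 that turned to 0.16 with arrays centred on all probes. Without IL-10- replicate 2, 0 of the 2 and 2 of the 4 were still called. Ms4a1, the B cell protein CD20, read 7.51, 7.53, 7.44, 7.63 and 7.41 against 8.19, 8.39 and 8.06, a 1.64-fold difference (adjusted p = 0.00663). Among B cell transcription factors 1 of 16 was higher and 2 lower, or 18.8% called against 16.6% of all genes. The antagonists of E proteins moved in opposite directions, as Id2 rose by 1.06 ± 0.18 (SE) and Id3 fell by 1.05 ± 0.20.

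On the quantile scale, immediate early, calcium and MAP kinase genes held more lower than higher calls. Of all genes, 8.57% were called higher and 8.01% lower. Among 17 immediate early and AP-1 factors, 6 were lower and none higher, with a median difference of -0.60, and 1 of the 6 was still called without IL-10- replicate 2. With arrays centred on all probes none was called and the median was -0.02. Fos and Egr1, induced within minutes of stimulation, overlapped between groups, at 10.00 to 11.20 against 9.97 to 11.48 and at 14.06 to 14.78 against 14.12 to 15.10. Calcium and NFAT response genes had 2 of 17 lower and none higher, or 11.8% called against 16.6% of all genes. The MAP kinase list had 2 of 18 higher and 4 lower. The medians of these lists, -0.22 and -0.29, turned to 0.28 and 0.21 with arrays centred on all probes, against 0.50 for all probes. On that scale 4 calcium genes were higher and none lower, and 3 MAP kinase genes were higher and 1 lower. Rap1gap, which turns off Rap1, read 8.86, 8.50, 9.01, 8.32 and 8.59 against 5.50, 6.36 and 4.91, and was detected on 1 of 3 IL-10- arrays.

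NF-kB subunits, inhibitors and targets were lower in 8 of 21 and higher in none, with a median difference of -0.43, and 6 of the 8 were still called without IL-10- replicate 2. With arrays centred on all probes 1 was lower and 2 were higher, with a median of 0.16 against 0.50 for all probes. Map3k8, the kinase TPL2 that links NF-kB p105 to ERK, read 7.50, 7.45, 7.76, 7.42 and 7.88 against 9.04, 9.09 and 9.91, a 3.34-fold difference (adjusted p = 0.0014). Cflar, the caspase-8 inhibitor FLIP, was 2.07-fold lower. Tnfaip3, the deubiquitinase A20, was 1.64-fold lower with an adjusted p of 0.00991, and of 0.0525 with the replicate block. Nfkbia, the inhibitor IκBα, overlapped and was not called.

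In the list of the IL-10 receptor and STAT3 signalling 3 of 17 were higher and 3 lower, of which 1 and 2 were still called without IL-10- replicate 2, and likewise with the replicate block. Socs2, a feedback inhibitor of STAT5 signals, was 3.05-fold higher, whereas Socs3, a feedback inhibitor that STAT3 induces, read 9.66, 9.65, 9.70, 10.33 and 10.49 against 10.75, 11.41 and 11.27 and fell 2.26-fold. Bcl3, an atypical IκB protein, was 2.74-fold lower. The SOCS genes had adjusted p of 0.0014 and 0.0137.

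Of 16 genes for Toll-like receptor sensing 3 were higher and 1 lower, or 25% called against 16.6% of all genes. Tlr2, the receptor for bacterial lipoproteins, read 7.46 to 7.83 against 6.46 to 6.73, a 2.12-fold difference. Cd180, the TLR4 relative RP105 that B cells use with MD-1, was 2.10-fold higher at its brightest probe, while another probe differed by -0.40 ± 0.41 (SE) and was not called. Pik3cg, the leukocyte PI3K gamma subunit, was 3.81-fold higher and Irs2, an insulin receptor substrate, 3.10-fold lower, in a list with 1 of 16 higher and 3 lower.

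Interferon response genes were split, with 2 of 24 higher and 3 lower, or 20.8% called against 16.6% of all genes. The median difference of 0.05 turned to -0.06 with arrays centred on the detected probes. Ifih1, the RNA sensor MDA5, read 9.63, 9.52, 9.65, 8.95 and 8.10 against 6.65, 7 and 5.21, a 7.39-fold difference, and was detected on 2 of 3 IL-10- arrays. Rsad2, the antiviral enzyme viperin, was 4.16-fold higher. Ifitm2, which blocks viral entry, was 3.16-fold lower.

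Metal handling differed in single genes. In a list of 13 metallothioneins and zinc transporters 5 were higher and 2 lower, with a median of 0.02. Mt1, which binds zinc, rose by 3.86 ± 0.35 (SE), or 14.5-fold (adjusted p = 0.000328). Mt2, its neighbour on chromosome 8, passed detection on 3 of 5 IL-10+ arrays but no IL-10- array and was at least 1.02-fold higher. Slc39a4, a zinc importer, read 6.58 to 7.04 and was at least 2.12-fold higher, and Slc30a1, a zinc exporter, differed by 0.70 ± 0.16 (SE). The adjusted p of Slc30a1 was 0.0174, 0.0782 with the replicate block and 0.0638 without IL-10- replicate 2. Mtf1, the zinc sensor that activates Mt1, Mt2 and Slc30a1, overlapped between groups.

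The promoters of 3 of these genes are shown because Mtf1 is known to act through metal response elements. They run 5′ to 3′ on the gene's strand, as windows of 300 bases around the annotated start, from RefSeq on GRCm38.p6, at chr8:94178839-94179138 for Mt1, chr8:94172368-94172667 for Mt2 and chr1:191906531-191906830 for Slc30a1, all on the plus strand. Capitals mark the core letters TGCGCNC or TGCACNC on either strand.
Mt1: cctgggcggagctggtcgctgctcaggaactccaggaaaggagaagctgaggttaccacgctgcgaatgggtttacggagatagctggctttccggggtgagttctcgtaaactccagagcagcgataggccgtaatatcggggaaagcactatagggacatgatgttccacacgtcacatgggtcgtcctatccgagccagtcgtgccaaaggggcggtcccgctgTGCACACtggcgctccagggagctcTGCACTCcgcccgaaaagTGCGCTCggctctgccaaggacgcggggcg
Mt2: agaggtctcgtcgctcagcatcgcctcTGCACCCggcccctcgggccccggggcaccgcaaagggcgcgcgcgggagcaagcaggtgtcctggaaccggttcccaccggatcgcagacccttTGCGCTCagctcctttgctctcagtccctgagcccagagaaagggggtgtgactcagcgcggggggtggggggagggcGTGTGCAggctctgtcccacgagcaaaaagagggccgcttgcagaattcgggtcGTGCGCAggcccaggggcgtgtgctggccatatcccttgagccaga
Slc30a1: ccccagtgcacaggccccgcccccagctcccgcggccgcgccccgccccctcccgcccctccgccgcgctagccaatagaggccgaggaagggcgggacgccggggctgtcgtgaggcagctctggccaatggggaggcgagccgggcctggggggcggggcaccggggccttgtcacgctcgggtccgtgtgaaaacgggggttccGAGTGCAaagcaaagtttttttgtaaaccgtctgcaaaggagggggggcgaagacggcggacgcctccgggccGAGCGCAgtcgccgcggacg
A core stood 3 times in the Mt1 window, 4 times in that of Mt2 and 2 times in that of Slc30a1, and 25.6% of 27025 promoters of this length held at least 1. The Mtf1 window held none. These matches describe letters and do not show binding.

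Heat shock genes were called in both directions. In a list of 17, 2 were higher and 2 lower, or 23.5% in all against 16.6% of all genes. Hspa1a, an inducible HSP70, was detected on all 3 IL-10- arrays, at 7.49, 6.94 and 6.61, and on no IL-10+ array, and was at least 2.82-fold lower (adjusted p = 0.000859). Its near-identical copy Hspa1b, at 3.03-fold lower, may share its signal. Bag3, a cofactor of HSP70, read 9.14, 8.52, 9.02, 8.75 and 9.08 against 6.50, 6.89 and 7.01, a 4.29-fold difference in the other direction. Hspb1, a small heat shock protein, was 3.14-fold higher and was detected on 1 of 3 IL-10- arrays. These opposite directions held within both slides.

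Because heat shock factor is known to drive all 4 genes, the windows of 1 gene of each direction follow, from RefSeq on GRCm38.p6, at chr17:34972107-34972406 on the minus strand for Hspa1a and chr7:128523333-128523632 on the plus strand for Bag3. Capitals mark the letters GAANNTTC, which read the same on both strands.
Hspa1a: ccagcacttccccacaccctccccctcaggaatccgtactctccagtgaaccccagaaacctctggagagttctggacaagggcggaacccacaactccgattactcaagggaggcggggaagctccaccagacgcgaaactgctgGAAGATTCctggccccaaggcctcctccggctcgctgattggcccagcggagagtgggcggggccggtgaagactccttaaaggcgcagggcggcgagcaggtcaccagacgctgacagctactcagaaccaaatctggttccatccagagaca
Bag3: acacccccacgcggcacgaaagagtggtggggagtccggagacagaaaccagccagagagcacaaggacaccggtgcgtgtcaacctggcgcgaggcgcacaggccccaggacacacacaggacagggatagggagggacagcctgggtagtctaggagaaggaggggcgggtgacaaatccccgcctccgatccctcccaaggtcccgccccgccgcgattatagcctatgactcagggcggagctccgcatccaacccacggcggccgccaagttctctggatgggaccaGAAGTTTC
The letters stood 1 time in each of the windows of Hspa1a, Hspa1b and Bag3 and 2 times in that of Hspb1, against 7.95% of all 27025 promoters with at least 1.

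Other stress genes were also divided. Of 14 in the ATF4 amino acid response 2 were higher and 2 lower. Asns, the asparagine synthetase, read 11.89, 11.69, 11.56, 12.08 and 11.75 against 9.94, 9.95 and 10.14, a 3.44-fold difference (adjusted p = 0.000258), and Chac1, which degrades glutathione, was 2.92-fold higher. Ddit3, the factor CHOP of the same response, was 2.73-fold lower, at 8.56 to 8.97 against 9.96 to 10.43. Oxidative stress genes were higher in 5 of 16 and lower in none. Gadd45a, a growth arrest gene, was 2.56-fold higher, whereas its relative Gadd45g read 11.10, 10.54, 10.23, 10.45 and 10.30 against 12.69, 12.35 and 11.95 and was 3.50-fold lower.

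Cell division genes leaned higher. Of 22 DNA replication genes 5 were higher and none lower, with a median difference of 0.23, and without IL-10- replicate 2 the median was 0.08 and 3 of the 5 were still called. Of 13 mitosis genes 5 were higher and none lower, with a median of 0.72. Mki67, the proliferation marker, read 7.26, 7.11, 7.17, 7.16 and 7.55 against 5.96, 5.83 and 6.26, a 2.35-fold difference (adjusted p = 0.0014). Top2a, which untangles replicated DNA, was 2.30-fold higher, Cdk1, the mitotic kinase, 2.56-fold, and Tyms, which makes thymidylate, 2.97-fold. Their levels stayed between 5.83 and 8.63 on every array. Dimmer probes of Mki67, Top2a and Tyms differed by 0.60 ± 0.22, 0.32 ± 0.18 and 0.77 ± 0.35 (SE) and were not called.

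Among 16 cyclins and CDK inhibitors 4 were higher and 1 lower. Cdkn2b, the CDK4 and CDK6 inhibitor p15, was 14.2-fold higher (adjusted p = 8.2e-05). The BCL2 family and caspases had 1 of 14 higher and 1 lower, or 14.3% called against 16.6% of all genes. Bcl2, which protects from apoptosis, was 2.29-fold higher at its brightest probe, while another probe differed by -0.19 ± 0.21 (SE).

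Cytoskeletal genes, S100 proteins and annexins were higher in 9 of 20 and lower in none, with a median difference of 0.74. Without IL-10- replicate 2, 6 of the 9 were still called, and with the replicate block also 6. Tubb6, a beta tubulin, read 11.72, 11.56, 11.31, 11.66 and 11.82 against 7.86, 8.66 and 8.59, a 9.46-fold difference (adjusted p = 6.36e-05). S100a6, a calcium-binding protein, read 10.10, 8.84, 9.12, 9.54 and 10.17 against 6.16, 6.34 and 6.90, and Anxa2, a phospholipid-binding annexin, 10.63, 10.42, 10.02, 9.92 and 10.43 against 7.66, 7.52 and 7.67. Ahnak, a giant scaffold protein, was 2.92-fold higher. S100a6, Anxa2 and Ahnak also stand in the list of innate-like B cell genes, as does Cdkn2b. Vim, the intermediate filament vimentin, overlapped and was not called.

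Other genes with narrow spread were found outside the larger groups. Lysmd2, a LysM domain protein, read 9.53, 9.45, 9.33, 9.31 and 9.35 against 6.82, 6.81 and 6.79, with an SE of 0.11 and an adjusted p of 9.13e-06. Rgs10, which shortens G protein signals, was 3.13-fold higher. Stk39, a stress-related kinase, read 6.83 to 8.75 and was at least 3.64-fold higher, and Oosp1, a gene named for its expression in oocytes, read 7.44 to 8.98 and was at least 6.07-fold higher. Pfkp, a glycolytic kinase, was 3.45-fold higher, in a list of glycolysis and hypoxia genes with 2 of 15 higher and none lower. That share of 13.3% lay below the 16.6% of all genes called.

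**Figure D5:**
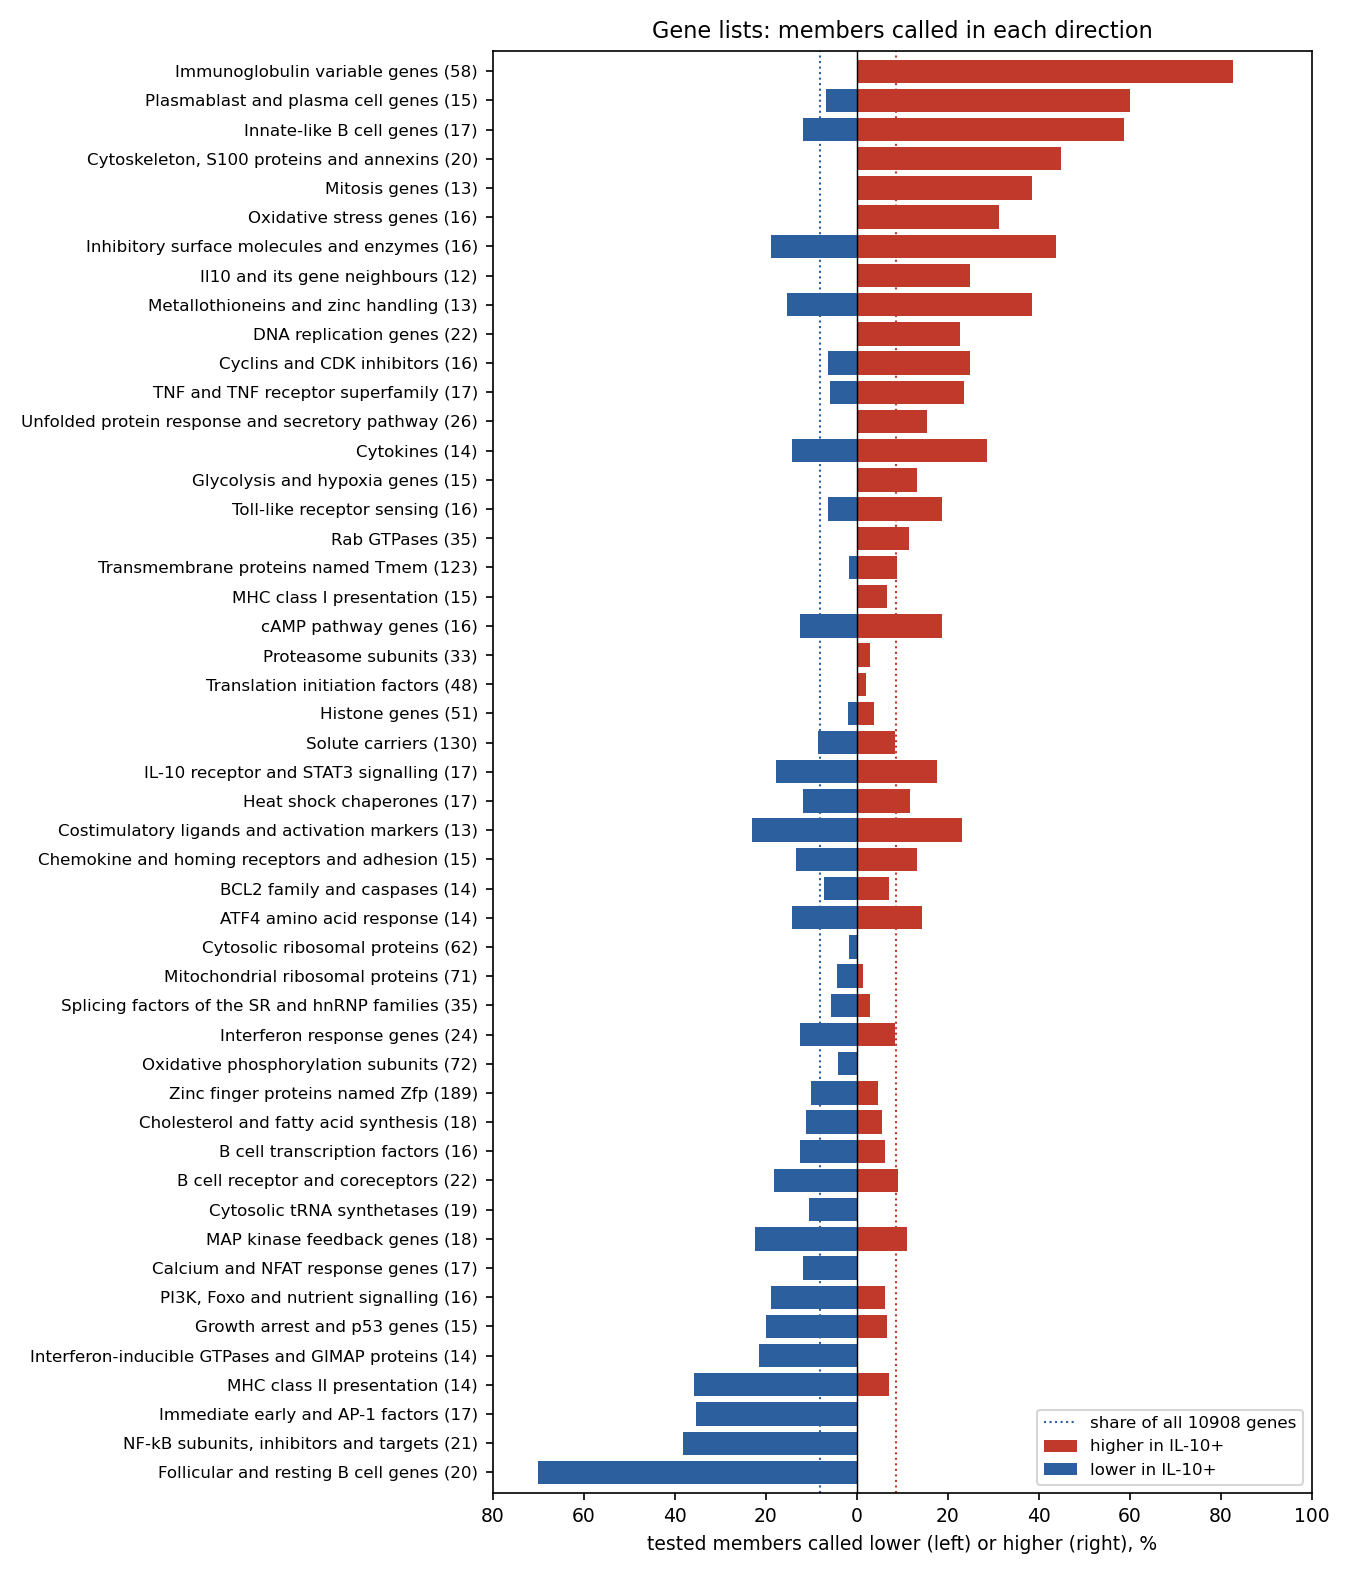
Share of tested members called lower (blue, left) and higher (red, right) in IL-10+ cells for gene lists with at least 12 tested members, whose number stands in brackets, and the share of all 10908 genes called in each direction as dotted lines. Immunoglobulin variable genes reach farthest right, with 48 of 58, and follicular genes farthest left, with 14 of 20.

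Few housekeeping genes were called. Of 62 cytosolic ribosomal protein genes none was higher and 1 lower, of 71 mitochondrial ribosomal genes 1 and 3, of 72 oxidative phosphorylation genes 0 and 3, of 33 proteasome genes 1 and 0, and of 48 translation initiation factors 1 and 0. Their median differences ran from -0.05 to 0.16. With arrays centred on all probes their medians ran from 0.29 to 0.71, and with arrays centred on the detected probes from -0.33 to 0.09.

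Markers of other cell types were read for what else the sorted cells could hold. Of 5 T cell markers only Cd3g was tested, at a summed linear signal of 44.6 to 63.7 against 21.5 to 29.6, and Cd247, Cd3d, Cd3e and Lat were not detected on 2 arrays. Cd3g, a chain of the T cell receptor complex, was called higher (adjusted p = 0.00561), passed detection on 3 of 5 IL-10+ arrays but no IL-10- array, and gets no fold, as its bound was below 1. Its adjusted p under the replicate block was 0.0525. In the wider list of T cell signalling genes 4 of 14 were tested, with a median difference of 0.94. Cd2, Cd3g and Zap70 were higher while Lck was not called. A dimmer probe of Zap70 differed by 0.82 ± 0.34 (SE) and was not called. The part of T cells in the differences of Ctla4, Lag3 and Tnfrsf18, which T cells also express, was not tested. Of 6 macrophage markers 3 were tested, at 2702 to 4041 against 952 to 1729, where Mpeg1 was 2.99-fold higher and C1qa, Csf1r and Lyz2 were not detected. Mpeg1, a pore-forming protein, is also expressed by B cells. Of 5 dendritic cell markers Siglech and Zbtb46 were tested, at 294 to 469 against 582 to 598, where Siglech was lower, with Flt3, Itgax and Xcr1 not detected. The erythroid marker Hbb-b1 stood at 159 to 299 against 408 to 797 and was lower, with Alas2 not detected. Neutrophil markers were not detected, and of the natural killer and basophil markers only Prf1 and Hdc were, at 1629 to 7686 against 3433 to 7250 and at 71.3 to 83.7 against 73.4 to 81.5.

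The plasma cell markers Jchain and Prdm1 summed to 193 to 837 on the IL-10+ arrays and 98.4 to 108 on the IL-10- arrays, and Sdc1 was not detected. The part of these cells in the differences of immunoglobulin and secretory genes was not tested. The 4 tested B cell markers summed to 35550 to 44020 against 45540 to 49560. The share of other cells in any difference above was not tested.

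Precision rose with level. From the dimmest to the brightest of 5 equal groups of genes, the median SE fell from 0.23 to 0.134 log2, and the share called higher ran 10%, 9.72%, 9.4%, 8.39% and 5.32%. The share called lower ran 7.47%, 10.9%, 9.49%, 7.2% and 5.04%. Detection on all 5 IL-10+ arrays and no IL-10- array held for 141 genes, of which 127 were called higher, and the reverse held for 21 genes, all 21 called lower. Choosing genes by detection nearly fixes the direction of their calls, so these counts are a description. In lists with few lower calls, 1 of 2 was still called without IL-10- replicate 2 among innate-like genes, B cell transcription factors, calcium response genes and metal handling genes, 1 of 3 among interferon response genes, and 0 of 1 among plasma cell genes and Toll-like receptor genes. Of 499 called genes with further tested probes, 266 had another probe called the same way and 7 one called the opposite way.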

How the data were processed

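Expression in mouse splenic B cells was measured on Illumina MouseWG-6 beadchips. The deposited table without normalization holds the mean intensity of the beads of each probe on a linear scale, the bead SD, the bead count per probe and a detection score that rises with signal, exported from GenomeStudio 1.9.0 per the file headers. The other deposited table gives log2 values that the authors had processed for 9679 probes. The submitters' processing notes list lumi, with the probe filter and the scaling not given in the sources used here. Since its probe identifiers were not paired with the first table's, it was used for counts of calls only.

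The 8 arrays of IL-10+ and IL-10- cells were background corrected and quantile normalized together by neqc (limma 3.58.1, R 4.3.3; offset 16), where 1 minus the detection score served as detection p. Probes scoring above 0.99 on at least 2 of the 8 arrays were tested with lmFit and eBayes, two-sided, with Benjamini-Hochberg adjustment over 16064 probes at 0.05. The fit had 6 residual degrees of freedom, or 9.6 after moderation. Each gene is described by its tested probe of highest mean. Names in the file numbered 30854, of which 16223 matched a RefSeq symbol, 5706 matched a synonym of a single gene, 117 were ambiguous and 8808 had no match. Where no array of a group was detected, the fold is a bound, "at least", taken between the mean of the bright group and the dim group's mean of, per array, the higher of the lowest detected signal and the probe's own signal. Bead numbers had a median of 38 to 41 per probe and array.

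Members, gene lists and comparisons were chosen with earlier results of these data known, so counts over the lists are descriptions, and no set test was run. Named genes are Il10, the 25 largest rises and falls without overlap, the 10 smallest p each way, the 12 largest bounds each way, the 8 largest passing differences each way among the brightest 5%, every passing immunoglobulin gene, and the 6 largest passing members of each list, or 2 of smallest p. Genes with clone-type names, 414 of those called, were counted and not named. The text gives values for 26 further genes, such as Cd1d1, Bcl6, Xbp1 and list members that were not called, which were chosen after their values were seen. Of the 128 genes described, 36 had another tested probe, and for 3 of these (Bcl2, Cd180 and Spn) it had the opposite sign. For 24 of the 36, at least 1 other probe was called the same way.

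Deviations from the group means correlated at 0.358, 0.237 and 0.333 over probes for IL-10+ and IL-10- arrays numbered 2, 3 and 5 in the titles, so these numbers were taken to pair the samples. Both arrays of each pair lay on the same slide, and the differently numbered IL-10+ replicate 4 with IL-10- replicate 5 of slide 2 gave 0.287. Slide 1 held IL-10+ replicates 1, 2 and 3 and IL-10- replicates 2 and 3, and slide 2 the others. The fit was tested on simulated data. Alternatives covered background correction, scaling, detection filters, blocks, slides, omissions and the authors' table.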

Additional observations from a re-analysis of the deposited data

Results flagged for a closer look

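Among the 128 genes described in the text, 10 had 1 IL-10+ array that stood far from the other 4, by Dixon's ratio of the gap to the range. Chance sets such an array apart in about 1 in 20 groups. On IL-10+ replicate 1, Ccr7 read 11.51 against 12.02 to 12.2 on the others, Cd274 12.12 against 12.77 to 13.03, and Cflar 8.78 against 9.06 to 9.13. On IL-10+ replicate 2, Cd80 read 8.07 against 7.12 to 7.38, Cgas 5.95 against 6.55 to 6.79, and the erythroid gene Hbb-b1 7.31 against 8.03 to 8.22. On IL-10+ replicate 5, Foxp1 read 11.6 against 11.25 to 11.34 and Pfkp 9.48 against 9.77 to 9.86. The near-identical HSP70 genes Hspa1a and Hspa1b, which may share signal, were both high on that array, at 5.37 against 4.43 to 4.68 and at 5.58 against 4.68 to 4.93. Hspa1a was not well above background on any IL-10+ array and Hspa1b on 4 of 5.

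Outside the comparison, Il10 stood at 10.63 and 9.89 on the total B cell arrays, above the highest IL-10- array at 7.92 when all 10 arrays were normalized together.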

How the results depend on the processing

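Il10 differed by 4.80 to 6.05 log2 and was called under every alternative in which it was measured. Counts of called probes were less even, against 2574 in all, 1340 higher and 1234 lower. With the replicate number as a block 1681 were called, 787 of them lower, and with it as a random effect 4010, of which 2018 were lower. Within slide 1 there were 965, 607 higher and 358 lower, and within slide 2, where the lone IL-10- array was assumed to vary like the others, 620 were lower. Centring on the detected probes left 868 higher, and centring on all probes gave 3703 higher and 106 lower. The authors' table, which holds fewer probes, gave 867 higher. Leaving out arrays gave 1189 to 2495 in all, 719 to 1371 higher and 470 to 1124 lower. The lowest of these counts came without both arrays of replicate 2, which was chosen after seeing the data, and the highest without IL-10- replicate 5. Without IL-10- replicate 2 alone there were 1528, 881 higher and 647 lower, and without IL-10+ replicate 4 there were 1627, 724 of them lower. The other counts stayed within 1.5 times, and beyond fewer samples or probes the cause was not tested.

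All 109 called genes among the 127 followed kept their sign under every alternative, and 62 also kept their call. The alternatives reuse the arrays on which these genes were called, so the kept signs are a description. The block took the call from Cd3g, Igkc, Jchain, Pigr, Slc30a1 and Tnfaip3 and changed no other call among them except that of Il24. Within slide 1, within slide 2 and centred on all probes 18, 24 and 19 genes lost it, among them Cd83, lost in all 3 settings. Without both arrays of replicate 2, 9 lost it, among them Ciita, Rsad2 and Tbx21. Signs turned only for genes that were not called. Centred on all probes, the differences were 0.081 for Ccr7, 0.051 for Cxcr5, 0.079 for Egr1, 0.404 for Fos, 0.511 for Mtf1, 0.209 for Nfkbia, 0.379 for Spn and 0.546 for Tgfb1. Within slide 2 they were 0.073 for Fos, 0.154 for Nfkbia and 0.016 for Tgfb1, which had 0.03 with the replicate block. Leaving out arrays gave -0.379 to 0.104 for Egr1, -0.597 to 0.159 for Fos, -0.336 to 0.018 for Spn and -0.115 to 0.068 for Tgfb1. Genes detected on few arrays have the least certain folds, since dim probes had the widest SE.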
